A study of Mus musculus with 12 samples.

Results

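The noncoding snoRNA host genes Gas5, Zfas1, Snhg1, Snhg3, Snhg5, Snhg6, Snhg8, Snhg12 and Snhg15 were followed in mouse liver after knockdown of the translation initiation factor subunit eIF3m. They were chosen by gene symbol, and all 9 were found among the 50686 genes of the count table. The study gave FVB/N mice aged 6 to 8 weeks lipid nanoparticles carrying siRNA through the tail vein, at 0.5 mg/kg and 1 injection in 5 days. Livers were taken at 9 or 13 days, and mRNA captured from the ground tissue was sequenced. The groups were Eif3m siRNA at day 9, control siRNA at day 9, Eif3m siRNA at day 13 and control siRNA at day 13, each with 3 libraries, 12 in all. The control siRNA was a scrambled luciferase sequence in the same kind of particle, so particles and injections were common to the siRNA and control groups of a day. On this schedule the number of injections may have differed between the days. The labels do not tie the libraries to separate mice, and the p-values therefore cover only the spread between these libraries, which may be technical. Whole liver was ground, so fewer cells of a type and less RNA per cell cannot be told apart.

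Small nucleolar RNAs (snoRNAs) guide chemical modification of ribosomal RNA, box C/D snoRNAs for ribose methylation and box H/ACA snoRNAs for pseudouridylation. Most vertebrate snoRNAs are cut out of introns, and in the genes described here the spliced exons that remain carry no long reading frame. Many of these spliced RNAs are exported, bound by ribosomes and then destroyed by nonsense-mediated decay, the translation-dependent pathway that removes RNAs whose stop codon lies well before the last exon junction. Several host genes also begin transcription in a pyrimidine tract like that of ribosomal protein genes. Gas5 is known from growth-arrested cells, in which its spliced RNA accumulates. Zfas1 is named for lying head to head with Znfx1, and the Snhg genes are numbered as snoRNA hosts.

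The hosts differ in what they carry. GENCODE M21, an annotation of mm10, places 9 snoRNA loci inside Gas5 (chr1:161034422-161038539, plus strand), 3 inside Zfas1 (chr2:167062934-167065862, plus strand) and 8 inside Snhg1 (chr19:8723475-8726443, plus strand). Snhg5 (chr9:88521050-88522929, minus strand) holds 2 loci, Snhg12 (chr4:132308623-132311024, plus strand) holds 4 and Snhg15 (chr11:6525591-6528760, minus strand) holds 1. Snhg3 (chr4:132348014-132353686, minus strand) holds 2, and Snhg6 (chr1:9941959-9944118, minus strand) and Snhg8 (chr3:123507552-123508404, minus strand) hold 1 each. One snoRNA of 5 hosts is printed below from the same annotation's transcripts, 5′ to 3′ on the host's strand, to show the product that each host delivers. Capitals mark box C (TGATGA) and box D (CTGA) in the box C/D snoRNAs, and the ACA box in the H/ACA snoRNA Snora9. Snord47 of Gas5 lies at chr1:161038082-161038158, Snord12 of Zfas1 at chr2:167065276-167065365, Snord50a of Snhg5 at chr9:88521529-88521600, Snord87 of Snhg6 at chr1:9942463-9942549 and Snora9 of Snhg15 at chr11:6528033-6528165.
Snord47: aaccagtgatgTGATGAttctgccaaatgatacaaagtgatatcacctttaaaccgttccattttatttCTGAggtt
Snord12: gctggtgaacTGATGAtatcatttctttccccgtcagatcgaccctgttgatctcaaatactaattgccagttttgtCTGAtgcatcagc
Snord50a: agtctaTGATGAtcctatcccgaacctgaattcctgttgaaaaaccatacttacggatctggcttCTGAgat
Snord87: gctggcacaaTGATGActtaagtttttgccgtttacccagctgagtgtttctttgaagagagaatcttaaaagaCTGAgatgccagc
Snora9: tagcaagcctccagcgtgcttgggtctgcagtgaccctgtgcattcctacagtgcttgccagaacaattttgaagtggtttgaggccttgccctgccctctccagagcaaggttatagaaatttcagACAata

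**Figure D1:**
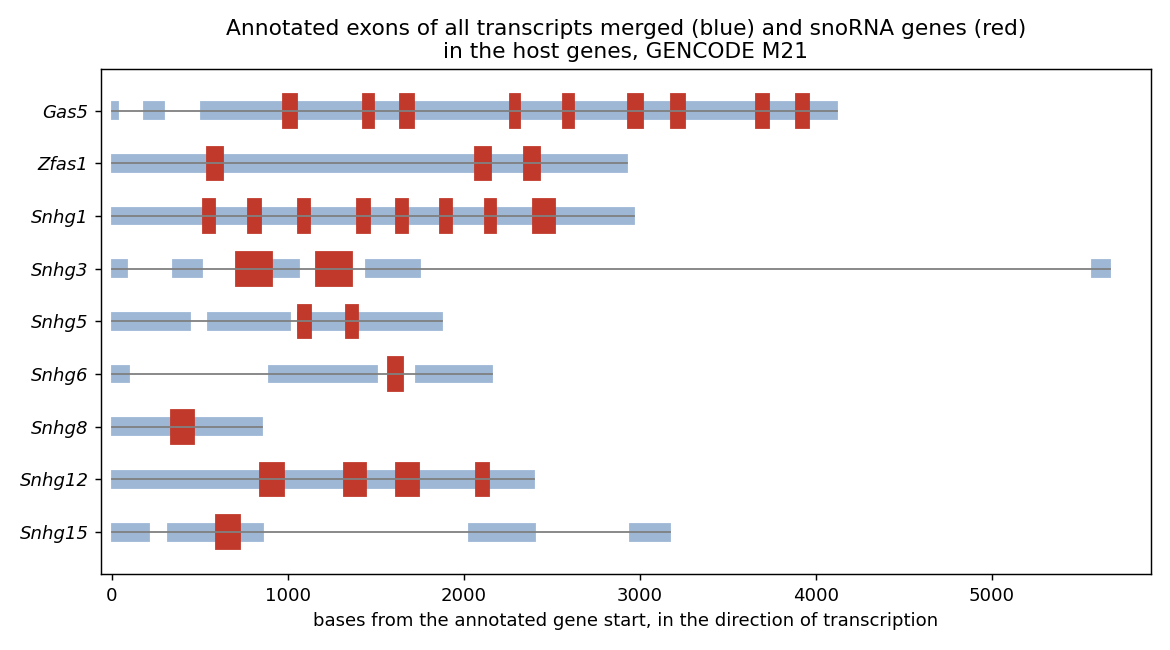
Map of the 9 host genes by distance in bases from the annotated gene start, drawn in the direction of transcription; blue blocks are annotated exons of all transcripts merged and red blocks are snoRNA genes. Gas5 and Snhg1 carry the most snoRNA loci, 9 and 8, while Snhg6, Snhg8 and Snhg15 carry 1 each.

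The reading frames of the hosts were read from the annotated transcripts, because decay depends on where a stop codon lies. In each spliced transcript the frame of the first ATG was followed to its stop, and transcripts were counted whose stop lay more than 50 bases before the last exon junction. Of the spliced transcripts, 24 of 25 from Gas5, 5 of 5 from Zfas1, 15 of 18 from Snhg1, 5 of 6 from Snhg5, 9 of 10 from Snhg12 and 3 of 4 from Snhg15 had such a stop. The share was 2 of 5 for Snhg3, 4 of 5 for Snhg6 and 2 of 2 for Snhg8. Transcripts typed as retained introns were counted here, and they were most of those of Gas5, Zfas1 and Snhg1. Transcripts of other genes were not read in this way, so the counts do not set the hosts apart. Frames of the transcript with the most exons are printed for 4 hosts, from the start codon to the stop codon, both in capitals, to show where the frame ends. The frames of the hosts not printed were 54 codons long for Snhg12, 53 for Snhg6, 42 for Snhg3, 40 for Snhg1 and 35 for Snhg15. Gas5's frame holds 23 codons and 9 junctions follow its stop, Zfas1's holds 17 codons with 4 junctions after it, Snhg5's holds 36 codons with 3 junctions, and Snhg8's holds 1 codon with 2 junctions.
Gas5: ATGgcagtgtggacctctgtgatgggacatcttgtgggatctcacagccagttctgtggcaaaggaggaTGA
Zfas1: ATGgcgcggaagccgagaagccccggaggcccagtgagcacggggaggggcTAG
Snhg5: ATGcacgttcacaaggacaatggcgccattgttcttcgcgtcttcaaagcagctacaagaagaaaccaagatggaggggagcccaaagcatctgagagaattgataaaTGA
Snhg8: ATGTAG

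The libraries held 46912540 to 54538581 counts in the siRNA group and 38783564 to 52012851 in the control group at day 9, and 7650269 to 9630027 and 7775566 to 9222719 in the siRNA and control groups at day 13. Levels are given as CPM, a gene's counts scaled to a common library size, with libraries normalised by the trimmed mean of M-values. Eif3m, the target, averaged 4.79 ± 0.0859 CPM in the siRNA livers and 44.8 ± 0.684 CPM in the control livers at day 9, and 2.37 ± 0.167 and 36.4 ± 4.56 CPM in the siRNA and control livers at day 13 (SD, n = 3 each). Day 9 and day 13 libraries were named as separate sets, and they parted on the first principal component of log2 CPM, which held 40.1% of the variance. Each siRNA effect was therefore taken against the controls of its own day. Day 13 siRNA replicate 2 and day 13 control replicate 3 stood apart on the third component, with 9.44% of the variance, at 36.9 and 52.0. The other day 13 siRNA libraries lay at −37.6 and −4.68 and the other day 13 controls at −18.0 and −15.3 on it. Summed hepatocyte markers (Alb, Apoa1, Ttr, Cps1 and Hnf4a, all 5 detected in every library) ran from 76439 to 83642 CPM in the siRNA livers and from 101300 to 107580 CPM in the controls at day 9. At day 13 the same sum ran from 89354 to 144720 CPM in the siRNA livers and from 160490 to 182150 CPM in the controls. The markers did not all move alike. Of the 5, 1 was called lower and none higher at day 9, and 2 were called lower and 1 higher at day 13.

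At day 9, 6 of the 9 host transcripts rose in the Eif3m siRNA livers, by 2.41-fold for Snhg12 to 4.57-fold for Snhg15, and none fell. With the day 9 counts thinned to the depth of day 13, the log2 fold change of Snhg15 was 3.78, against 2.19 with all counts. The risen transcripts were Gas5, Zfas1, Snhg1, Snhg5, Snhg12 and Snhg15, while Snhg3, Snhg6 and Snhg8 did not pass the test. A transcript was called at an adjusted p under 0.05 in edgeR's quasi-likelihood test over all 14248 genes tested. All 9 hosts entered that test, in which 5.94% of genes rose and 6.84% fell at day 9. The median log2 fold change was 1.29 over the 9 hosts and 0.01 over all genes. Summed over the 9 hosts, the level was 157 to 191 CPM in the siRNA livers, against 56.2 to 82.1 CPM in the control livers.

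At day 13 the same 6 transcripts were called higher, with folds from 3.49 for Snhg12 to 10.2 for Zfas1, and again none was lower. In that comparison 12.8% of all genes tested rose and 10.9% fell. The median log2 fold change was 2.20 over the 9 hosts and 0.00 over all genes. The summed level was 427 to 502 CPM in the siRNA livers, against 56.5 to 91.0 CPM in the control livers. Ranked by p over the 14248 genes, Zfas1 was number 9, Gas5 number 16, Snhg1 number 35 and Snhg5 number 46 at day 13. Snhg12 stood at 488 and Snhg15 at 1113. With 3 libraries against 3, an exact permutation test of a single transcript cannot give a two-sided p below 0.1, which is what each of the 6 transcripts gave at both days. The same p came at day 9 from Znfx1, Rcc1 and Mcmdc2, neighbouring genes that were not called. Lack of overlap alone therefore does not set the hosts apart.

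**Figure D2:**
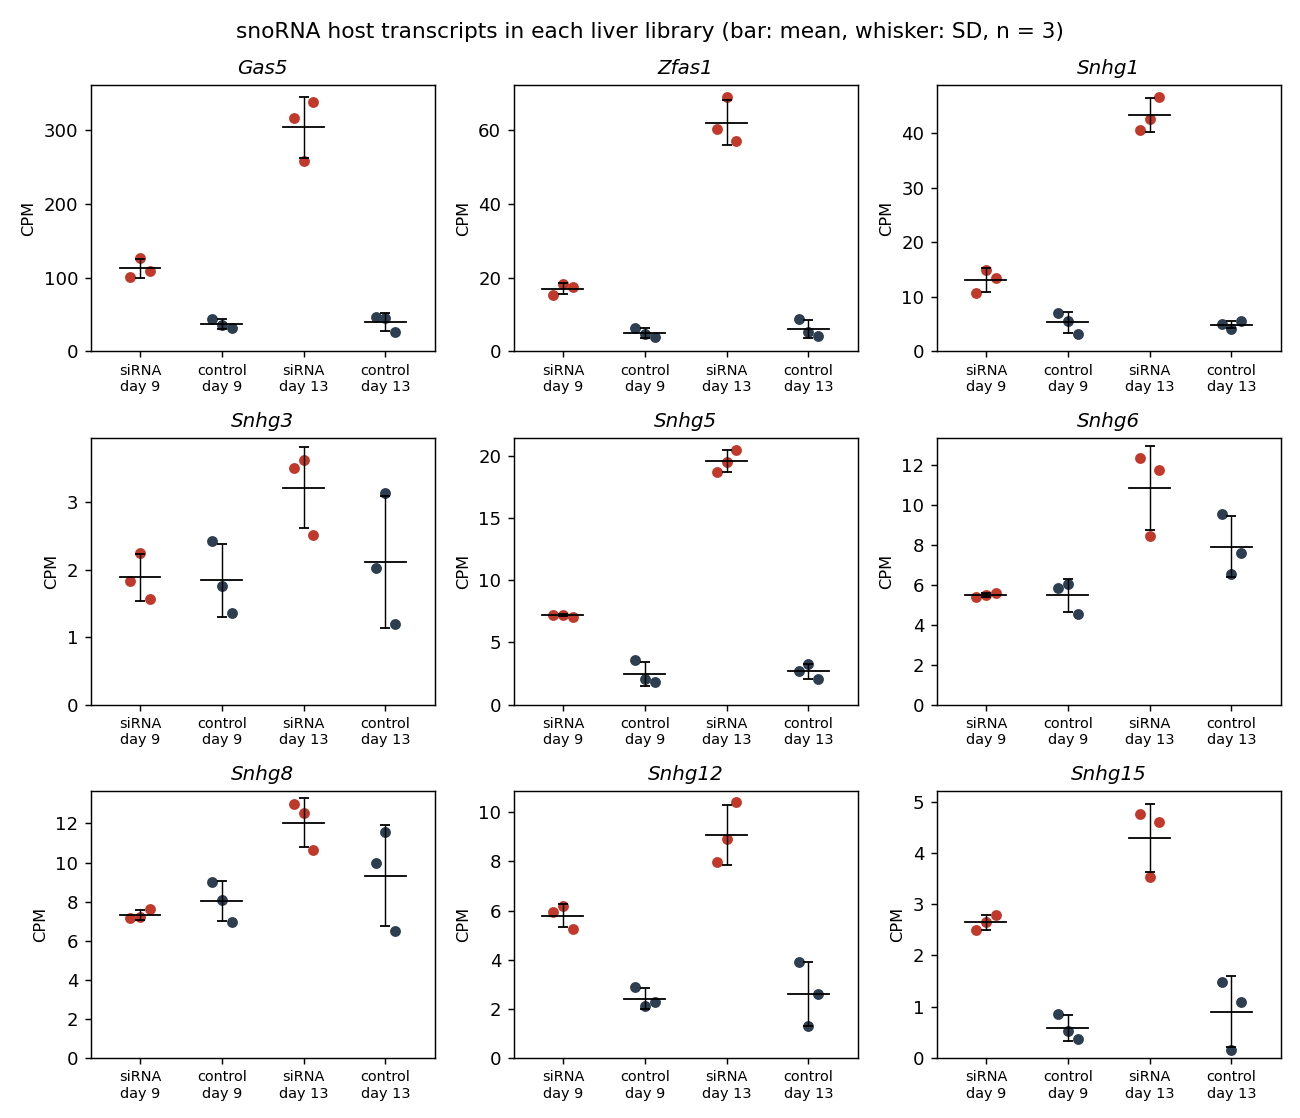
CPM of each host transcript in every library (points), with the mean (bar) and SD (whisker, n = 3), Eif3m siRNA in red and control siRNA in dark blue at each day; each panel has its own vertical axis from 0. In the panels of Gas5, Zfas1, Snhg1, Snhg5, Snhg12 and Snhg15 the siRNA points lie above all control points of their day, and in those of Snhg3, Snhg6 and Snhg8 the groups overlap.

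Gas5, the host with the most snoRNA loci, was also the most abundant. At day 9 it had 101, 127 and 109.8 CPM in the siRNA livers, against 44.1, 35.3 and 31.8 CPM in the control livers. At day 13 it had 317, 259 and 338 CPM in the siRNA livers, against 47.4, 45.9 and 25.8 CPM in the control livers. The groups did not overlap at either day. Every siRNA liver of day 13 exceeded every siRNA liver of day 9, as held for each of the 9 hosts, called or not. The share of all genes that did so was not counted, and the day cannot be told apart from the library set. For Snhg6 the controls were also higher at day 13, at 6.55 to 9.55 CPM against 4.51 to 6.04 CPM. For Gas5 the controls of the 2 days covered a like range. The log2 fold change was 1.60 (SE 0.198, 95% interval 1.18 to 2.03, adjusted p = 0.000420) at day 9 and 2.95 (SE 0.204, interval 2.51 to 3.39, adjusted p = 2.69e-06) at day 13.

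Zfas1, host of Snord12 and its relatives, moved most at day 13. Its levels at day 9 were 15.4, 18.2 and 17.4 CPM in the siRNA livers and 6.35, 4.75 and 3.86 CPM in the control livers. At day 13 they were 60.3, 69.1 and 57.1 CPM in the siRNA livers and 8.88, 5.41 and 4.22 CPM in the control livers. Control replicate 1 was the highest control at both days, and still the siRNA livers lay above it. Zfas1 changed by a log2 fold of 1.77 (SE 0.202, interval 1.34 to 2.21, adjusted p = 0.000215) at day 9 and 3.35 (SE 0.236, interval 2.84 to 3.85, adjusted p = 2.33e-06) at day 13.

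Snhg1, host of Snord22 and 7 further snoRNA loci, had 10.7, 15 and 13.5 CPM in the siRNA livers of day 9, against 7.12, 5.62 and 3.23 CPM in the controls. The day 13 siRNA livers had 40.6, 42.6 and 46.6 CPM, against 5.11, 4.13 and 5.52 CPM in the controls. The groups did not overlap at either day, and the gap between the lowest siRNA liver and the highest control was wider at day 13. Its log2 fold change was 1.29 (SE 0.217, interval 0.83 to 1.76, adjusted p = 0.00227) at day 9 and 3.13 (SE 0.262, interval 2.56 to 3.69, adjusted p = 5.86e-06) at day 13.

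Snhg5, host of Snord50a and Snord50b, varied little among the siRNA livers of a day. The siRNA livers of day 9 had 7.23, 7.20 and 7.08 CPM and the controls 3.60, 2.03 and 1.79 CPM. Those of day 13 had 18.7, 19.5 and 20.5 CPM and their controls 2.69, 3.28 and 2.06 CPM. Neither day showed any overlap, and control replicate 1 of day 9 stood above the other controls of that day. The log2 fold change was 1.54 (SE 0.208, interval 1.10 to 1.99, adjusted p = 0.000567) at day 9 and 2.89 (SE 0.269, interval 2.31 to 3.47, adjusted p = 8.33e-06) at day 13.

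Snhg12, host of H/ACA snoRNAs and of the box C/D snoRNA Snord99, changed less. In day 9 siRNA livers it had 5.95, 6.17 and 5.26 CPM, against 2.88, 2.09 and 2.27 CPM in the controls. In day 13 siRNA livers it had 7.97, 8.90 and 10.4 CPM, against 3.90, 1.28 and 2.60 CPM in the controls, of which replicate 2 held 9 counts. The groups stayed apart at both days, with a wide spread among the day 13 controls. Its log2 fold change was 1.27 (SE 0.218, interval 0.80 to 1.74, adjusted p = 0.00237) at day 9 and 1.80 (SE 0.282, interval 1.20 to 2.41, adjusted p = 0.000406) at day 13.

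Snhg15, host of Snora9, was the least abundant of the risen transcripts and rested on few counts. Day 9 siRNA livers held 135 to 159 counts, or 2.49, 2.65 and 2.79 CPM, and the controls 15 to 33 counts, or 0.849, 0.527 and 0.362 CPM. Day 13 siRNA livers held 34 to 42 counts, or 4.76, 3.52 and 4.60 CPM, and the controls 1 to 11 counts, or 1.48, 0.142 and 1.08 CPM. All siRNA livers lay above all controls of their day, and day 13 control replicate 2 with its single count was far below the other controls. Its log2 fold change was 2.19 (SE 0.351, interval 1.44 to 2.94, adjusted p = 0.00147) at day 9 and 2.20 (SE 0.469, interval 1.20 to 3.21, adjusted p = 0.00285) at day 13.

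The 3 transcripts that did not pass the test were hosts of 1 or 2 snoRNAs, as were the risen Snhg5 and Snhg15. Snhg3, host of the H/ACA snoRNAs Snora73a and Snora73b, had 1.83, 2.25 and 1.57 CPM in day 9 siRNA livers, against 2.42, 1.76 and 1.35 CPM in the controls. Its day 13 values were 3.50, 3.62 and 2.52 CPM in siRNA livers, against 2.02, 3.13 and 1.19 CPM in the controls. The groups overlapped at both days, and the log2 fold change was 0.04 (interval −0.56 to 0.64, adjusted p = 0.951) at day 9 and 0.63 (interval −0.13 to 1.40, adjusted p = 0.219) at day 13. These intervals leave room for a change of either sign at day 9 and for more than a doubling at day 13.

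Snhg6, host of Snord87, had 5.36, 5.47 and 5.57 CPM in day 9 siRNA livers, against 5.84, 6.04 and 4.51 CPM in the controls. At day 13 the siRNA livers had 12.3, 8.44 and 11.7 CPM, against 9.55, 6.55 and 7.58 CPM in the controls. Replicate 2 was the siRNA liver that fell among the day 13 controls. The log2 fold change was 0.00 (interval −0.36 to 0.36, adjusted p = 1.00) at day 9 and 0.44 (interval 0.03 to 0.86, adjusted p = 0.111) at day 13. Without that replicate, Snhg6 was called at day 13, at 0.59 with an adjusted p of 0.0423.

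Snhg8, host of Snora24, had 7.16, 7.20 and 7.62 CPM in day 9 siRNA livers, against 9.00, 8.09 and 6.95 CPM in the controls. Day 13 siRNA livers had 13.0, 12.5 and 10.6 CPM, against 9.96, 11.5 and 6.50 CPM in the controls. The groups overlapped at both days. For Snhg8 the log2 fold change was −0.13 (interval −0.48 to 0.23, adjusted p = 0.666) at day 9 and 0.38 (interval −0.03 to 0.79, adjusted p = 0.171) at day 13. For Snhg8 the upper ends of these intervals lay below the lower ends of those of the 6 called hosts at the same day, whereas the day 13 interval of Snhg3 reached past the lower ends of those of Snhg12 and Snhg15. The transcripts were not tested against each other.

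**Figure D3:**
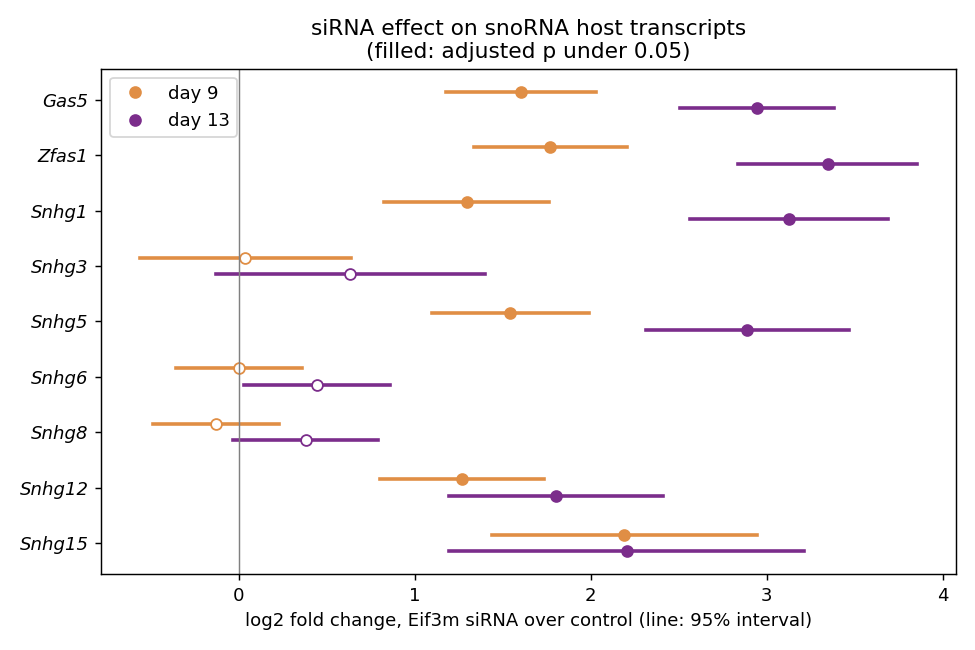
Log2 fold change of each host transcript, Eif3m siRNA over control, at day 9 (orange) and day 13 (purple); lines are 95% intervals from the edgeR fit and filled points have an adjusted p under 0.05. Gas5, Zfas1, Snhg1 and Snhg5 lie near 3 at day 13, Snhg15 at 2.19 and 2.20 at the 2 days, and Snhg3, Snhg6 and Snhg8 near 0 at day 9.

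The effect was larger at day 13 than at day 9 for 3 of the 9 hosts, Gas5, Zfas1 and Snhg1, when the difference itself was tested. Over all genes tested, 0.898% had a difference called upward and 1.66% one called downward, and 2.55% either. With upper-quartile scaling the split of all genes was 86 upward and 290 downward, against 128 and 236 with the main scaling, and the same number of hosts was called. The difference in log2 fold change was 1.34 for Gas5 (SE 0.284, adjusted p = 0.0292), 1.57 for Zfas1 (SE 0.311, adjusted p = 0.0199) and 1.83 for Snhg1 (SE 0.340, adjusted p = 0.0152). Snhg5 had a difference of 1.35 that missed the threshold (SE 0.340, interval 0.62 to 2.08, adjusted p = 0.0513). Snhg15 differed by 0.01 with a wide interval from −1.25 to 1.27 (adjusted p = 1.00), and Snhg12 by 0.53 (interval −0.23 to 1.3, adjusted p = 0.464). Snhg3, Snhg6 and Snhg8 differed by 0.60, 0.44 and 0.51, with adjusted p-values from 0.310 to 0.531. Without day 9 siRNA replicate 1 only Snhg1 was called, Gas5 having an adjusted p of 0.0954 and Zfas1 one of 0.0619, and without day 9 siRNA replicate 3 they had 0.0756 and 0.0513. Gas5 also lost the call without day 9 control replicate 1 (0.0674) or 2 (0.0566) and without day 13 siRNA replicate 1 (0.0573) or 3 (0.0922), while Snhg5 gained it without day 9 control replicate 3 (0.0352). Each day has its own set of libraries, its own depth and perhaps its own number of injections. The day cannot be told apart from these in this difference.

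The pair of day 13 libraries that stood apart did not carry the calls within a day. Without both, the log2 fold change at day 13 was 2.80 for Gas5, 3.01 for Zfas1, 3.22 for Snhg1, 2.70 for Snhg5, 1.80 for Snhg12 and 2.48 for Snhg15. Each remained past the threshold, with the largest adjusted p at 0.00960 for Snhg15. Snhg3, Snhg6 and Snhg8 remained below it, at 0.20, 0.56 and 0.11. For the difference between the days, the adjusted p without both libraries was 0.00708 for Gas5, 0.0455 for Zfas1 and 0.0501 for Snhg1, the last at a difference of 1.94.

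An order of libraries within a group was shared by most of the 9 transcripts in the day 9 controls and less so elsewhere. The share of all genes with the same order was not counted. Control replicate 1 of day 9 was the highest of its group for 8 of the 9 hosts and control replicate 3 the lowest for 8. In the day 9 siRNA group replicate 1 was lowest for 6 and replicate 2 highest for 5. The day 13 controls had replicate 1 highest for 5 and replicate 3 lowest for 5, and in the day 13 siRNA livers the highest and lowest values were spread over all 3 libraries. Mitochondrial transcripts, a sign of RNA composition, made up 3.93% to 4.16% of counts in siRNA and 3.66% to 3.90% in control livers at day 9, and 4.47% to 5.20% and 3.14% to 5.73% in siRNA and control livers at day 13. Summed Kupffer cell markers (5 of 5 detected) were at 133 to 161 CPM in siRNA and 215 to 259 CPM in control livers at day 9, and at 81.6 to 142 CPM and 179 to 240 CPM in siRNA and control livers at day 13. Monocyte markers (5 of 5) were at 106 to 121 CPM in siRNA and 43.1 to 53.9 CPM in control livers at day 9, and at 65.8 to 81.3 CPM in siRNA and 107 to 149 CPM in control livers at day 13. Markers of dividing cells (4 of 4) were at 7.02 to 11.9 CPM in siRNA and 2.27 to 3.50 CPM in control livers at day 9, and at 3.18 to 6.99 CPM and 4.01 to 7.98 CPM in siRNA and control livers at day 13. Cholangiocyte markers (5 of 5) were at 26.3 to 28.9 CPM in siRNA and 20.3 to 25.7 CPM in control livers at day 9, and at 26.3 to 34.6 CPM and 20.3 to 26.1 CPM in siRNA and control livers at day 13, higher without overlap at both days, with no marker called at day 9 and 1 called higher at day 13. Erythroid markers, 4 in number, were at 306 to 553 CPM in siRNA and 448 to 597 CPM in control livers at day 9 and at 447 to 1452 CPM and 1651 to 3821 CPM in siRNA and control livers at day 13. The sums of endothelial and stellate cell markers were likewise lower in siRNA than in control livers without overlap at day 13, at 165 to 187 against 191 to 241 CPM and at 241 to 250 against 275 to 354 CPM. The sums of T cell, B cell and neutrophil markers overlapped between siRNA and control livers at both days. The part of these cell types in the result was not tested.

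To set hosts beside each other, CPM was divided by the median length of a gene's annotated transcripts in kilobases. Transcripts typed as retained introns were left out of that median. On that scale Gas5 was the highest of the 9 hosts in every group, at 224 ± 25.9 and 73.9 ± 12.6 CPM per kilobase in siRNA and control livers at day 9 and 607 ± 82.3 and 79.0 ± 24.0 in siRNA and control livers at day 13 (SD, n = 3). The lead of Gas5 depends on the length used. Per kilobase of all annotated exons merged, Gas5 had 30.0 and 9.86 CPM in siRNA and control livers at day 9 and 81.0 and 10.6 CPM in siRNA and control livers at day 13, while Snhg8 had 8.59 and 9.39 CPM in siRNA and control livers at day 9 and 14.1 and 10.9 CPM in siRNA and control livers at day 13. In the control livers Snhg8 came next per kilobase of median transcript, at 16.4 ± 2.10 CPM per kilobase at day 9 and 19.1 ± 5.29 at day 13. Snhg6 followed at 9.77 ± 1.48 and 14.1 ± 2.73 in the controls of day 9 and day 13, Snhg1 at 9.69 ± 3.57 and 8.95 ± 1.3, and Zfas1 at 6.76 ± 1.71 and 8.37 ± 3.28. Neighbours in that order, such as Snhg6 and Snhg1 at day 9 or Snhg1 and Zfas1 at day 13, differed by less than their spread. Snhg15 was last among controls at 0.970 ± 0.414 and 1.51 ± 1.15. In the siRNA livers of day 13 the order changed, with Zfas1 at 84.2 ± 8.44 and Snhg1 at 78.6 ± 5.64 next after Gas5, and Snhg5 at 25 ± 1.12 beside Snhg8 at 24.7 ± 2.58. Zfas1 and Snhg1, and likewise Snhg5 and Snhg8, did not differ there beyond their spread.

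The patterns of the hosts were compared over the 12 libraries as the root mean square difference in log2 CPM, each centred on the mean of its day's controls. Gas5 and Snhg5 were closest at 0.198, followed by Snhg3 and Snhg8 at 0.253, Snhg6 and Snhg8 at 0.276 and Gas5 and Zfas1 at 0.300. Zfas1 and Snhg8 were farthest apart at 1.78. The 9 hosts were then left out, and 9306 other genes averaging 5 CPM or more were searched. Among these, the gene nearest to Gas5 was 2410006H16Rik at 0.185, itself a noncoding snoRNA host, and then Atf5, a stress-induced transcription factor, at 0.279 and Gadd45a, a growth arrest gene, at 0.355. Of the genes searched, 2410006H16Rik was also nearest to Snhg5, at 0.293, before Atf5 at 0.352 and Adora1, an adenosine receptor gene, at 0.372. Gadd45a was the nearest non-host gene to Zfas1 at 0.330 and to Snhg1 at 0.282. Zfas1 was next closest to Gdf15, which encodes a stress hormone, at 0.358 and to 2410006H16Rik at 0.399, and Snhg1 to Cyp2u1, a cytochrome P450 gene, at 0.318 and Adora1 at 0.369. Snhg12 was nearest to Gm14681 at 0.283, the transcription factor gene Atf3 at 0.296 and Nop56, which encodes a box C/D snoRNP protein, at 0.316. Snhg15 had no near neighbour, with Atf3 at 0.612, Adora1 at 0.738 and Trp53inp1 at 0.766. These values are descriptions, since all of these genes were measured in the same libraries and share their depth.

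**Figure D4:**
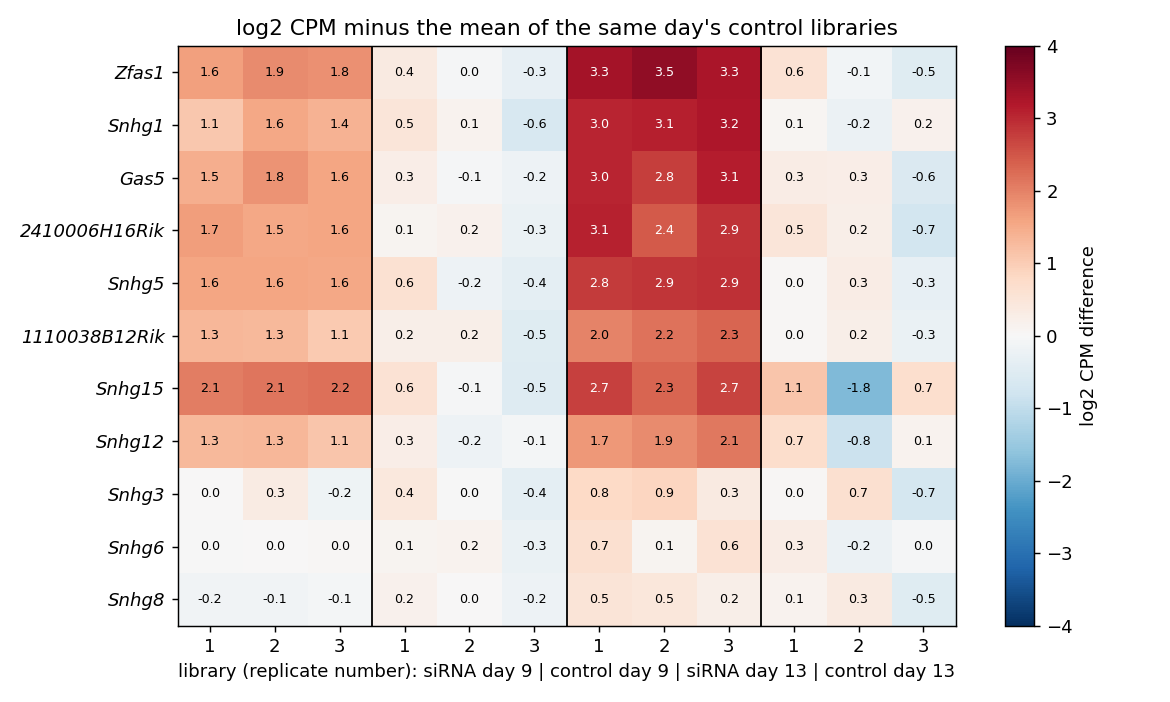
Log2 CPM minus the mean of the same day's control libraries (colour and printed value) for the 9 hosts and the noncoding hosts 2410006H16Rik and 1110038B12Rik, in each library, siRNA before control at each day. Zfas1, Snhg1, Gas5, 2410006H16Rik and Snhg5 are deepest red in the day 13 siRNA columns, and day 13 control replicate 2 is low for Snhg15 and Snhg12.

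Of a list of 15 further noncoding hosts, 10 were found in the table under the names searched and 7 were tested. Snhg4, Snhg7, Snhg10, Snhg16 and Snhg32 were not found and may be present under other names. Among the 7 tested, only 2410006H16Rik (chr11:62602877-62604807, plus strand, 3 snoRNA loci) was called at either day. It averaged 17.6 ± 0.900 CPM in siRNA and 5.82 ± 0.874 CPM in control livers at day 9, and 61.6 ± 13.6 and 9.14 ± 3.56 CPM in siRNA and control livers at day 13 (SD, n = 3). Its log2 fold change was 1.60 (adjusted p = 0.000808) at day 9 and 2.77 (adjusted p = 1.17e-05) at day 13. The other 6 tested hosts, Snhg14, Snhg17, Snhg18, Snhg20, Epb41l4aos and Rian, had log2 fold changes from −0.67 for Snhg20 to 0.26 for Rian at day 9 and from −0.20 for Snhg18 to 1.57 for Rian at day 13. Low counts at day 13 limit what several of these values can show. Rian had 5 to 7 counts in siRNA and 0 to 4 in control livers, and Snhg14 had 4 to 11 and 3 to 5. Snhg20 had 14 to 17 counts in siRNA and 6 to 15 in control livers. The list's median was 0.14 at day 9 and 0.67 at day 13. A wider set was added after these values had been seen, namely the 52 other genes that the annotation calls noncoding and that hold a snoRNA on their own strand. It may include hosts of the list under other names. Of the 17 tested, none was lower at either day. Those higher were 2 (11.8%) at day 9 and 3 (17.6%) at day 13, beside 5.94% and 12.8% of all genes. The called hosts were 2410006H16Rik and 1110038B12Rik at both days and Cct6a, a chaperonin subunit gene that this annotation types as a noncoding transcript, at day 13. 1110038B12Rik (chr17:34950238-34952471, minus strand, 2 snoRNA loci) had 9.11, 8.90 and 7.45 CPM in siRNA and 4.19, 4.24 and 2.53 CPM in control livers at day 9, and 20.4, 23.1 and 26.1 CPM in siRNA and 5.25, 5.98 and 4.22 CPM in control livers at day 13. It rose by 1.21 (adjusted p = 0.00115) and 2.18 (adjusted p = 1.54e-05) on the log2 scale at day 9 and day 13.

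Protein-coding genes that host snoRNAs, many of them for ribosomal proteins and translation factors, had smaller median changes than the 9 noncoding hosts, a difference that was not tested. Of 38 listed and tested, 23 rose and none fell at day 9, with a median log2 fold change of 0.54, and 29 rose and none fell at day 13, with a median of 1.06. The risen share was 60.5% at day 9 and 76.3% at day 13, beside 5.94% and 12.8% of all genes. The day 9 count was 14 without day 9 siRNA replicate 2 and 15 without replicate 3. Hspa9, a mitochondrial chaperone gene, averaged 938 ± 111 CPM in siRNA and 524 ± 24.2 CPM in control livers at day 9, and 1219 ± 23.0 and 453 ± 16 CPM in siRNA and control livers at day 13, with log2 fold changes of 0.84 and 1.43 (adjusted p = 0.000465 and 2.72e-06). Rpl4, Eef1b2 and Nop56 had 0.63, 0.75 and 1.13 at day 9 and 1.37, 1.69 and 1.56 at day 13, all called. Eif4a2, Eif4g1, Nap1l4, Ddx39b and Taf1d, hosts of the same list, did not pass the test at either day, with day 13 values from −0.06 to 0.28. Nor did Rpl10, Rpl30, Eif4a1 and Ppan, which had 0.44, 0.70, 0.30 and 0.51 at day 13. The list is a choice of well-known hosts, and over all 224 tested genes that the annotation calls protein-coding and that hold a snoRNA, added after these values had been seen, 19.6% were higher at day 9 and 32.6% at day 13, with median log2 fold changes of 0.16 and 0.22.

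**Figure D5:**
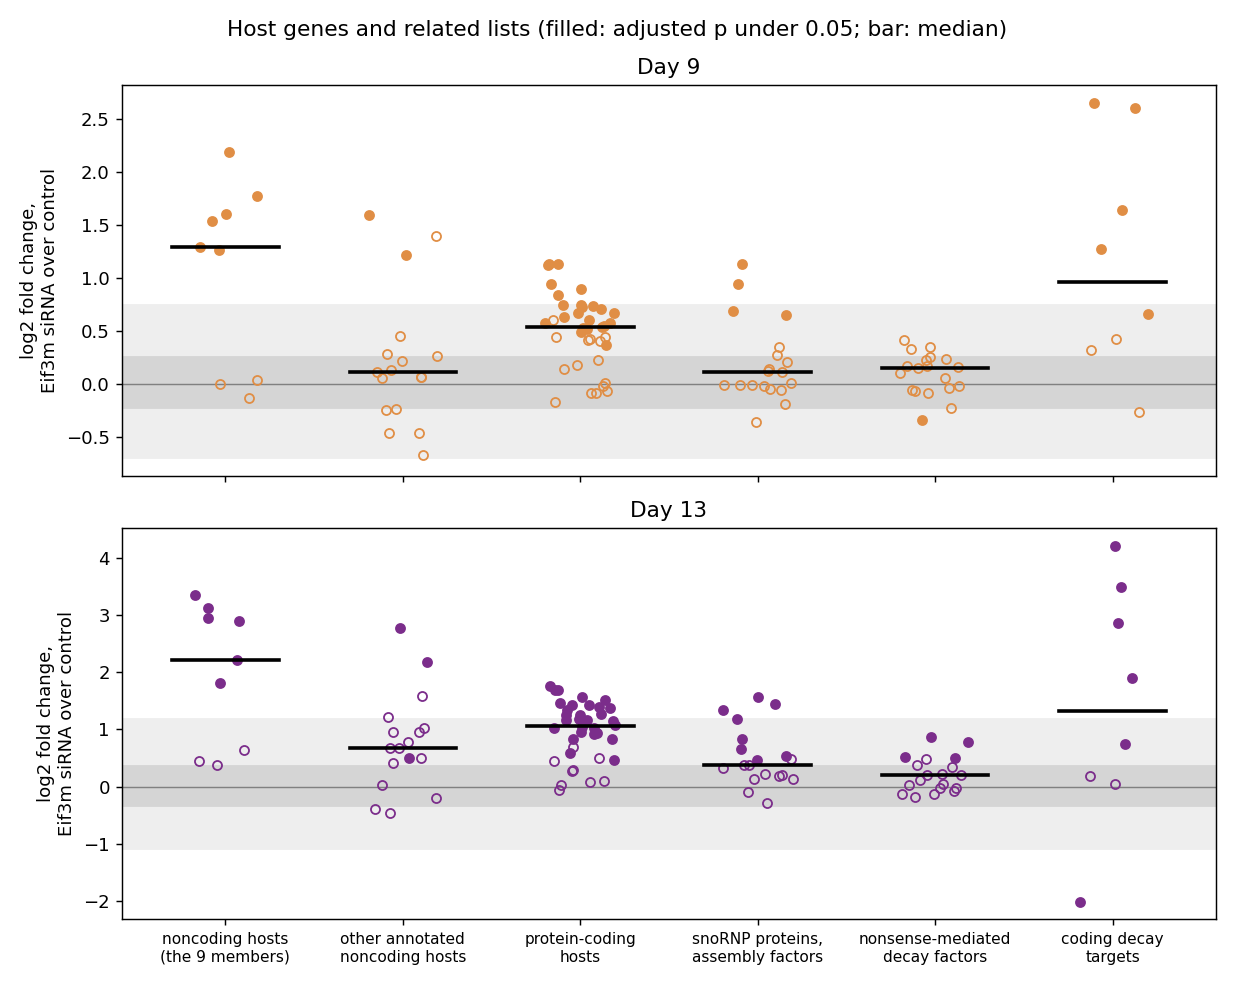
Log2 fold change of single genes (points, filled where the adjusted p is under 0.05) with the list median (bar) at day 9 above and day 13 below, Eif3m siRNA over control; bands span the middle 50% (dark grey) and 90% (light grey) of all 14248 genes. The 9 noncoding hosts have medians of 1.29 and 2.20, and the protein-coding hosts 0.54 and 1.06.

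The proteins that bind snoRNAs were described from a list of 19 core and assembly factors, all tested. At day 9, 4 rose and none fell, with a median log2 fold change of 0.11, and at day 13, 8 rose and none fell, with a median of 0.38. The risen share was 21.1% at day 9 and 42.1% at day 13, beside 5.94% and 12.8% of all genes. Nop56 and Nop58, box C/D core proteins that are themselves hosts, had 1.13 and 0.95 at day 9 and 1.56 and 1.34 at day 13. Nhp2 and Gar1, H/ACA core proteins, had 0.69 and 0.65 at day 9 and 1.44 and 1.17 at day 13. All 4 were called at both days, and Gar1 was the least abundant of them, at 10.5 ± 0.832 CPM in siRNA and 4.67 ± 1.19 CPM in control livers at day 13 (SD, n = 3). The day 9 count of 4 fell to 2 without day 9 siRNA replicate 2 or 3 and without day 9 control replicate 2 or 3. The mature snoRNAs were not measured by this assay. The table has 33 snoRNA rows inside the 9 hosts, 13 of them without a count in any library, and together they held 32 counts in siRNA and 30 in control livers at day 9 and 15 and 8 counts in siRNA and control livers at day 13.

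Messengers known as decay targets were set beside the hosts. Of 9 coding targets listed, 8 were tested. At day 9, 5 rose and none fell, and at day 13, 5 rose and Gadd45b fell, with medians of 0.97 and 1.32. The risen share was 62.5% at both days, beside 5.94% of all genes at day 9 and 12.8% at day 13. This short list was chosen with earlier results of these data known, so the share is only a description. Why these genes rose was not tested. Ddit3, the stress transcription factor CHOP, averaged 30.8 ± 7.64 CPM in siRNA and 5.06 ± 0.730 CPM in control livers at day 9 and 87.9 ± 10.5 and 4.86 ± 1.77 CPM in siRNA and control livers at day 13 (SD, n = 3), with log2 fold changes of 2.60 and 4.20. Ifrd1, a transcriptional coregulator gene, had 2.66 and 2.85, Gadd45a 1.27 and 3.49 and Atf3 1.64 and 1.89. Ern1 rose less, by 0.66 and 0.74. Atf4 had −0.26 and 0.04 and Tbl2 0.32 and 0.19, and neither passed the test at either day. Gadd45b had 0.42 at day 9, not called, and −2.01 at day 13. Of 19 decay factors, none rose and 1 fell at day 9, where 6.84% of all genes fell. The one that fell was Smg6, the endonuclease of the pathway (−0.34, adjusted p = 0.0474). At day 13, 4 rose and none fell. The call of Smg6 was lost when any one of the 6 libraries of day 9 was left out, and also without day 13 siRNA replicate 1 or 3 or day 13 control replicate 1 or 2. The day 13 count of 4, beside 12.8% of all genes, fell to 2 without day 13 siRNA replicate 2 or 3 and with each day fitted alone. The 4 that rose were Pnrc2, a decapping cofactor, at 0.78, Upf3a, an exon junction adaptor, at 0.86, Nbas at 0.51 and Rnps1, an exon junction protein, at 0.51. Upf1, the central helicase, had −0.07 and −0.08 and did not pass the test at either day.

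Promoter letters were read in RefSeq windows of GRCm38.p6, from 250 bases before to 50 bases after each annotated start, because terminal pyrimidine tracts are known from several hosts. Windows were found for 8 of the 9 hosts, with a pair of windows for Gas5. A run of at least 5 C or T letters that begins with C within 10 bases of the start, on the gene's strand, was present in Gas5's second window, Snhg3, Snhg5, Snhg8 and Snhg12, and in 30.7% of all 32851 windows. It was not found in Gas5's first window or in those of Zfas1, Snhg1 and Snhg15. CACGTG, searched on both strands, occurred in Snhg15's window alone of the hosts and in 7.15% of all windows, and TGATGCAA, on both strands, in none of the hosts' windows and in 0.895% of all. A stretch of 60 bases is printed for 4 hosts, from 20 bases before the start, with the run in capitals where there is one. They lie at chr1:161035146-161035205 (Gas5, plus strand), chr4:132308658-132308717 (Snhg12, plus strand), chr3:123508297-123508356 (Snhg8, minus strand) and chr2:167062914-167062973 (Zfas1, plus strand).
Gas5: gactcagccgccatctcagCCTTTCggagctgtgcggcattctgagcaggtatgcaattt
Snhg12: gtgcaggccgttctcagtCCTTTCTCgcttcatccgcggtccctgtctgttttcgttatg
Snhg8: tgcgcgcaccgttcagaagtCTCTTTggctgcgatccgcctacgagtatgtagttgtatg
Zfas1: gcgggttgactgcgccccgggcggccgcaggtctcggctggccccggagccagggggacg

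Some hosts share ground with a neighbour, and the counts of such genes are uncertain where the counting could split reads or ignore strand. Zfas1 overlaps Znfx1 on the opposite strand over 82 exon bases, 2.80% of its own, and Znfx1 had log2 fold changes of −0.24 at day 9 and −0.31 at day 13, neither called. Gas5 overlaps Zbtb37 in span without shared exon bases, and Zbtb37 had 0.11 and −0.09. Snhg6 shares 127 bases with Mcmdc2 on the opposite strand, which had −0.54 and −0.94 without passing the test. Snhg3 shares 135 bases with Rcc1 on the same strand, which had 0.31 and 0.18, and 705 bases, 71.5% of its exons, with Gm17300 on the opposite strand, which held 0 counts in every library. None of these neighbours was called at either day.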

How the data were processed

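Captured mRNA was measured in 12 liver libraries, 3 for each siRNA and day. The authors deposited a table of expected counts per Ensembl gene. STAR 2.5.3a, RSEM 1.3.0 and the build mm10 are named, without their roles, in the submitters' processing notes. How strand and gene models entered the counting is not given in the sources used here. Deposited values were whole numbers and were used as rounded expected counts. GENCODE M21 gave symbols, positions, exons and snoRNA loci for 50462 of 50686 identifiers. The 9 hosts, the gene lists and the tests were chosen with earlier results of these data known.

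Genes were kept by filterByExpr (minimum count 10), which left 14248, and scaled by TMM. The main test was the quasi-likelihood test of edgeR 4.0.16, robust, two-sided, with 4 groups, 12 libraries and 8 residual degrees of freedom, and Benjamini-Hochberg adjustment over all genes tested. Standard errors came from the fit's information matrix and posterior quasi-dispersion, and 95% intervals from its t distribution. Principal components and centred log2 CPM used a prior count of 2. Named were all hosts, up to 4 called members of each list with the smallest p at day 13, and the 3 genes nearest to each host called at both days; other names were chosen after their values were seen. Alternatives used DESeq2 1.42.0, limma-voom (limma 3.58.1), other scalings and filters, a replicate block, each day alone and each library left out. Thinning the day 9 counts to day 13 depth and leaving out the day 13 libraries that stood apart were added after seeing the data. The code was tested on simulated counts. No pair of libraries of a group differed by as little as sampling noise, at a chi-square per gene of 12.5 to 57.5. Depth limits the precision of low transcripts at day 13, where the libraries held 7650269 to 9630027 counts. Analyses ran in R 4.3.3, and figures in Python 3.11.15 with matplotlib 3.10.9.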

Additional observations from a re-analysis of the deposited data

Results flagged for a closer look

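The siRNA effect differed between the days for 3 hosts by a test of the difference itself in edgeR. The day 13 effect exceeded the day 9 effect by 1.34 on the log2 scale for Gas5 (adjusted p = 0.0292), 1.57 for Zfas1 (adjusted p = 0.0199) and 1.83 for Snhg1 (adjusted p = 0.0152). Gas5 kept this call in 14 of 21 alternatives and Zfas1 and Snhg1 in 18 each, and Snhg1 alone was called without day 9 siRNA replicate 1 or 3. The days differ in library set, in depth and perhaps in the number of injections, which cannot be told apart from the day. In groups of 3 libraries no single library was tested for standing apart.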

How the results depend on the processing

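The calls of Gas5, Zfas1, Snhg1, Snhg5, Snhg12 and Snhg15 within a day kept their direction and their side of the threshold in 260 of 260 values under the 22 alternatives, which leave Snhg12 and Snhg15 untested at a mean of at least 5 CPM. The number of hosts called higher was 4 to 6 at day 9 and 4 to 7 at day 13, with 4 at a mean of at least 5 CPM, where 3 of the hosts were not tested, and 6 to 6 and 6 to 7 with each library left out. The number with an effect that differed between the days was 0 with the replicate block, 1 to 4 with each library left out and 2 to 4 otherwise. Same-numbered libraries did not deviate together (correlations −0.16 to 0.16 at day 9, −0.07 to 0.08 at day 13), and with the block the differences of Gas5, Zfas1 and Snhg1 were 1.36, 1.58 and 1.79 (edgeR adjusted p = 0.0895, 0.0625 and 0.0603); it changed no host's call within a day. Gas5 also lost this call without either control 1 or 2 of day 9 or siRNA 1 or 3 of day 13 (adjusted p = 0.0566 to 0.0922), and Snhg1 with thinned day 9 counts (0.0584). Snhg5 passed with no filter, DESeq2, thinning and without day 9 control 3 (0.00707 to 0.0352). Signs turned where values were near 0. Snhg6 at day 9 was −0.00822 with DESeq2 size factors, −0.0156 with no filter, −0.00862 with DESeq2, −0.00157 with each day alone, −0.19 thinned, −0.0131 without the 2 day 13 libraries and −0.11 to 0.0857 with each library left out. Snhg3 at day 9 was −0.14 to 0.28 with each library left out. The difference of Snhg15 was −0.0333 with upper-quartile scaling, −1.58 thinned and −0.44 to 0.49 with each library left out, and that of Snhg3 was −0.0725 thinned. The causes were not tested. Over all genes, higher and lower calls with other settings ran from 542 to 1687 and 652 to 1725 at day 9 (846 and 975 in the main test), 1060 to 2031 and 954 to 1808 at day 13 (1824 and 1553) and 28 to 471 and 89 to 520 for the difference (128 and 236). With each library left out they fell to as few as 413 and 471, 1207 and 1092, and 34 and 96. Higher calls among protein-coding hosts ran from 14 to 28 at day 9, 26 to 30 at day 13 and 0 to 13 for the difference (23, 29 and 3), those among snoRNP proteins from 2 to 4 and 6 to 9 (4 and 8), those among decay factors from 0 to 2 and 2 to 5 (0 and 4), and those among the further noncoding hosts were 1 at day 9 and 1 to 2 at day 13. The fall of Smg6 was also lost with no filter, the replicate block and thinning, and the block left 2 snoRNP proteins higher at day 9. Transcripts below about 5 CPM, such as Snhg3 and Snhg15, held few counts at day 13, which limits the precision of their values.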
